A study of Rattus norvegicus with 16 samples.

Results

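A group of 10 genes, selected on a lower signal in the hypothalamus of rats that inhaled linalool, was followed across all 16 arrays of the study, 1 array per rat. They are Ptpru, Rnf32, Rassf3, Stard5, Stard8, Arhgef2, Arfgap3, Myh9, Slc31a2 and Dclre1b. Every probe set that the platform table gives to exactly 1 of them was taken, which found 15 of 31042 probe sets, for 10 of 14217 named genes. The groups were male Wistar rats of 7 to 8 weeks, 4 per group: rats held in restraint for 2 h while they inhaled (R)-(-)-linalool, rats that inhaled (R)-(-)-linalool for 2 h without restraint, rats held in restraint for 2 h without odour, and controls that had neither. All groups share strain, sex and tissue, and no allele or transgene is involved. Linalool is a monoterpene alcohol of lavender and other scented plants, used here as its (R)-(-) form. The whole hypothalamus is a mixture of neurons, glia and vessels, so fewer cells of a type and less RNA per cell cannot be told apart in any value given here.

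The genes were chosen with the linalool comparisons of these same rats known. Their calls and adjusted p in those comparisons are therefore given as a description of the choice and not as a test. Among the kept probe sets, which were those bright enough to be tested, 18 named genes were called lower for the linalool effect averaged over restrained and unrestrained rats, and the 10 genes are among these 18. Arfgap3 lay just inside the adjusted p of 0.05 that made the call, with an average linalool effect of -0.33 (SE 0.07, adjusted p = 0.0463 by limma). Just outside lay Cep85, a centrosome gene, with -0.33 (SE 0.07, adjusted p = 0.0547 by limma). What the choice did not use is the restraint effect averaged over both odour conditions, since in this balanced layout it is independent of every linalool comparison, and it was the comparison tested.

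The genes do not form 1 pathway. Myh9 is a non-muscle myosin, a motor that pulls on actin filaments and so sets the tension and shape of a cell, Arhgef2 is a guanine nucleotide exchange factor bound to microtubules, and Stard8 carries a lipid-binding START domain. Stard5, Slc31a2 and Arfgap3 act in the handling of sterols, copper and Golgi vesicles. Ptpru and Rassf3 belong to families of cell surface phosphatases and Ras-binding adaptors, and Dclre1b and Rnf32 encode a telomere nuclease and a RING finger protein. In brain, non-muscle myosin is known for its part in the shape of dendritic spines and of vessel walls.

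The promoters of 4 genes are shown, from RefSeq's annotation of the rat build GRCr8, as 250 bases before to 50 after the annotated start, 5′ to 3′. Ptpru, Rnf32 and Stard5 are the genes of the group whose promoter held TGACGT, the core of the cAMP response element, and Arhgef2 is the gene that passed the test for restraint. Capitals mark TGACGT and GGGCGG, the GC box, on either strand; in Ptpru the capitals are the palindrome TGACGTCA, which counts as TGACGT on both strands.
Ptpru, chr5:149308784-149309083, - strand: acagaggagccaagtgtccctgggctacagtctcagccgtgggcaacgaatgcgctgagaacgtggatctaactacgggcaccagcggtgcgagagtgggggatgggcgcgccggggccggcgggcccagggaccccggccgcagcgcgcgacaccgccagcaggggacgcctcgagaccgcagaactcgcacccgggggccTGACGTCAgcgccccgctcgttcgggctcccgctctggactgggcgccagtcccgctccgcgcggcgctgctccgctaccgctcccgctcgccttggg
Rnf32, chr4:6883927-6884226, - strand: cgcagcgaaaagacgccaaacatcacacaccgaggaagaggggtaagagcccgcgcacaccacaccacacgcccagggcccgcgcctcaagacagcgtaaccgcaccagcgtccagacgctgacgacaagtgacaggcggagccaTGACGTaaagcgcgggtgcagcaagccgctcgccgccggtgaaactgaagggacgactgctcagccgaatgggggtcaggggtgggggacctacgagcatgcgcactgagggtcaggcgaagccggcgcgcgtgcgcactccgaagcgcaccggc
Stard5, chr1:147015054-147015353, + strand: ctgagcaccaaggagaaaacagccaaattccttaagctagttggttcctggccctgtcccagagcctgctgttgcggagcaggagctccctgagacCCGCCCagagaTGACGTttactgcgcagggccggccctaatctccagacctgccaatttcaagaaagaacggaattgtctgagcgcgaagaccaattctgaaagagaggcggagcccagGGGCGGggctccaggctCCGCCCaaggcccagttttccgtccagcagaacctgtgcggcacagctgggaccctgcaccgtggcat
Arhgef2, chr2:176388349-176388648, + strand: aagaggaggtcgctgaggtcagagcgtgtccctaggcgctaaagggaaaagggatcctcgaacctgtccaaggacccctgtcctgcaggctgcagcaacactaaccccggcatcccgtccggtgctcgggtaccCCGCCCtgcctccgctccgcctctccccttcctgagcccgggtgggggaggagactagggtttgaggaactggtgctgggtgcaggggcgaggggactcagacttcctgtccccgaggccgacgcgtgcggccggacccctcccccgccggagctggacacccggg

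TGACGT began 48 bases before the start in Ptpru, 105 in Rnf32 and 143 in Stard5. It was in 3 of the 11 promoter entries of the 10 genes (Myh9 has several starts), against 7.94% of all 33469 promoters of the same length. The full TGACGTCA was in 1 of them, against 1.83% of all. GGGCGG was in 7 of the 11 entries, those of Rassf3, Stard5, Stard8, Arhgef2, Arfgap3, Myh9 and Dclre1b, against 33.1% of all. CCAAT was in 3 (37.5% of all), the E-box CACGTG in 1, that of Slc31a2 (6.42%), and TATAAA in 1, that of Myh9 (14.2%). The median share of G and C was 64.7% in the 11 entries and 51.7% over all, so that motifs rich in these bases are compared here between windows of unequal composition. A match is a description of the letters in these windows and not a binding site.

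The arrays differed in ways that touch the linalool comparisons. BioC, a bacterial RNA spiked into each hybridization, read 903 to 960 on 3 arrays and 246 to 282 on the other 13. The 3 belong to restrained rat 2 with linalool and to linalool rats 2 and 4, all of which inhaled linalool, so no value within them sets linalool against no linalool. Values are also given with high BioC as a block and within the 13 low arrays. The log2 ratio of beta-actin 3′ to 5′ signal was 2.3 in control rat 1 and 1.06 to 1.81 on the other arrays. Calls with this ratio in the fit, and without control rat 1, are given at the end. Of 12 hypothalamic marker genes such as Avp and Oxt, 9 were kept, with a summed signal of 19101 to 24709 in restrained rats with linalool, 18929 to 27309 in linalool rats, 17587 to 23357 in restrained rats and 18524 to 22934 in controls.

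For the average linalool effect, the 10 genes were 20.3% (Myh9) to 29% (Ptpru) below their level without linalool, on the log2(signal + 16) scale on which all differences below are given. Their median difference was -0.41, with -0.01 over all probe sets. All 10 were called lower, with 0.118% of all probe sets called lower and 0.714% in either direction in that comparison, as the choice of the genes fixes. In the separate comparisons, 0 of the 10 were called for linalool minus control by limma, where 0% of all probe sets were called in either direction and 1831 of 18625 had an unadjusted p under 0.05. For restrained rats with linalool against restrained rats, 1 was called lower (Slc31a2), with 0.0537% of all probe sets called lower and 0.65% in either direction. The rats of the groups did not overlap in 7 of 10 genes for linalool against control (2.21% of all probe sets lower without overlap), in 7 of 10 for linalool under restraint (5.32%), and in both for Ptpru, Stard5, Arhgef2 and Myh9, 4 of 10 (0.209%). These counts come from the values that chose the genes, so setting them beside the shares over all probe sets is no test.

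**Figure D1:**
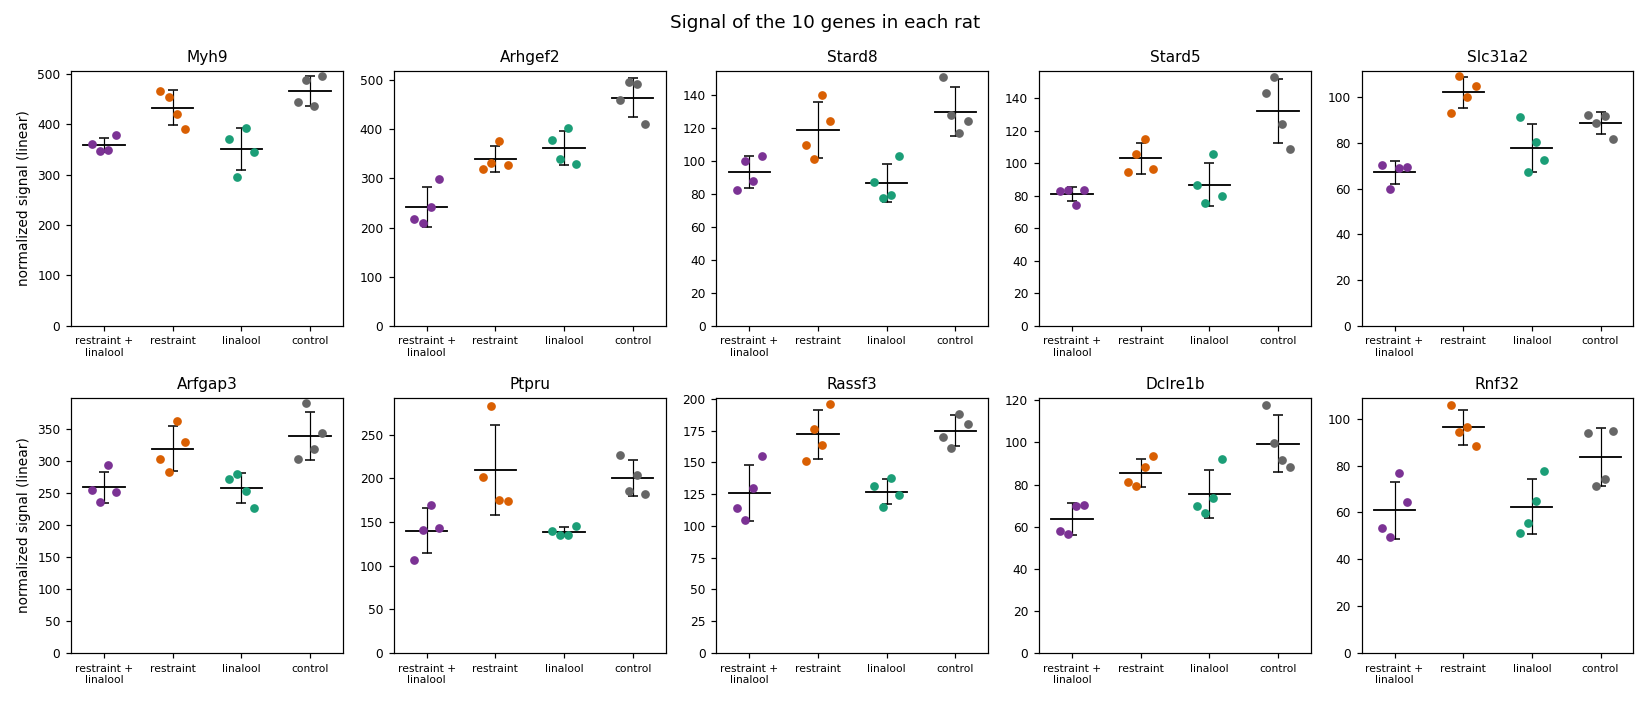
Quantile-normalized signal of each gene (linear scale from 0) in each rat, by group. Points are rats, lines are means and bars are SDs over 4 rats. In the panel of Arhgef2 the 4 restrained rats with linalool lie lowest, at 209 to 299, and the 4 controls highest, at 410 to 497.

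Myh9 (probe set 1371725_at), the heavy chain of non-muscle myosin IIA, had a normalized signal of 360, 347, 350 and 379 in restrained rats with linalool, against 467, 455, 420 and 391 in restrained rats. It had 370, 295, 393 and 345 in linalool rats, against 444, 488, 436 and 495 in controls. No linalool rat reached the lowest rat of its counterpart group, and the means of both linalool groups, 359 ± 14.4 and 351 ± 41.9, lay within 1 SD of each other (SD, n = 4 each). The difference was -0.26 (SE 0.09) under restraint and -0.40 (SE 0.09) without it. A further probe set, built on the RefSeq transcript of Myh9, is listed under 2 gene IDs that both carry the symbol Myh9; it was under the filter on dim probe sets and is left out of the counts. Its signal ran from 26.2 to 61.3 in restrained rats with linalool, 32.7 to 56.2 in restrained rats, 26.2 to 52.2 in linalool rats and 18.4 to 77.8 in controls, groups that overlap throughout, with an average linalool difference of -0.19.

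Arhgef2 (probe set 1390786_at), a guanine nucleotide exchange factor held on microtubules, had 218, 209, 242 and 299 in restrained rats with linalool, against 319, 332, 377 and 327 in restrained rats. In linalool rats it had 379, 339, 403 and 329, against 460, 497, 491 and 410 in controls. It was the gene of the 10 in which the rats with both treatments lay below the rats of every other group. Its group means were 242 ± 40.4 with both, 339 ± 26.1 with restraint, 362 ± 34.7 with linalool and 464 ± 39.8 in controls (SD, n = 4 each), and the means with restraint alone and with linalool alone differed by less than 1 SD. The linalool difference was -0.47 (SE 0.11) under restraint and -0.34 (SE 0.11) without it.

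Stard8 (probe set 1377923_at), a protein with a lipid-binding START domain, had 82.5, 100, 87.6 and 103 in restrained rats with linalool, against 110, 101, 140 and 124 in restrained rats. It had 87.2, 77.6, 79.1 and 103 in linalool rats, against 151, 128, 117 and 124 in controls. The linalool and control rats were separate, while under restraint the highest rat with linalool lay above the lowest without. The difference was -0.30 (SE 0.11) under restraint and -0.51 (SE 0.11) without it.

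Stard5 (probe set 1381461_at), a START protein that binds cholesterol and bile acids, had 83.1, 83.4, 74.5 and 83.8 in restrained rats with linalool, against 94.9, 106, 115 and 96.3 in restrained rats. It had 86.5, 75.4, 106 and 80 in linalool rats, against 143, 153, 124 and 109 in controls. In both comparisons the rats with linalool lay below those without, and the rats with both treatments lay closely together, at 81.2 ± 4.5 (SD, n = 4). The linalool difference was -0.29 (SE 0.11) under restraint and -0.53 (SE 0.11) without it. Its 2 dimmer probe sets, 1393183_at and 1394275_at, both under the filter, had linalool differences of -0.05 and 0.02 under restraint and -0.26 and -0.21 without it, and their group ranges overlapped in both comparisons. Over the 16 rats they correlated with the brighter one at Pearson's r = 0.54 and 0.60 as a description. Of 9 other kept START genes, 0 were called for linalool or restraint by limma, and their median linalool difference was -0.03.

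Slc31a2 (probe set 1373657_at), a copper transporter-like protein of endosomes and lysosomes, had 70.3, 59.8, 68.8 and 69.4 in restrained rats with linalool, against 93.1, 109, 100 and 105 in restrained rats. It had 91.4, 67.2, 80.4 and 72.4 in linalool rats, against 92, 88.8, 91.7 and 81.6 in controls. The separation was complete under restraint only, where the difference was -0.50 (SE 0.09), and without restraint it was -0.16 (SE 0.09). With the high BioC arrays as a block the unrestrained difference was -0.05, and within the low BioC arrays -0.04, against -0.45 and -0.46 under restraint. The second probe set of Slc31a2 (1394954_at), under the filter, had -0.25 under restraint and -0.04 without it, with overlapping rats in both. Of 13 kept copper genes on a list of 18, 0 were called for linalool. For restraint, ceruloplasmin, Cp, a copper-carrying ferroxidase of plasma and glia, rose by 0.48 (SE 0.11, adjusted p = 0.0193 by limma), 1 of the 13, and 0 fell.

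Arfgap3 (probe set 1388981_at), which switches off the Golgi GTPase Arf1, had 255, 236, 293 and 251 in restrained rats with linalool, against 303, 282, 363 and 329 in restrained rats. It had 272, 280, 253 and 227 in linalool rats, against 303, 390, 319 and 343 in controls. The linalool and control rats did not overlap, and under restraint 1 rat with linalool stood above the lowest restrained rat. The difference was -0.29 (SE 0.10) under restraint and -0.37 (SE 0.10) without it. Of 24 kept genes on a list of 28 Arf GTPases and their GAPs, 0 were called for linalool, with a median of -0.04, and for restraint 1 fell, Agap3 (-0.30, SE 0.07, adjusted p = 0.0194 by limma), an Arf GAP of synapses.

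Ptpru (probe set 1384485_at), a receptor-type tyrosine phosphatase with an adhesive extracellular part, had 107, 141, 169 and 143 in restrained rats with linalool, against 202, 283, 175 and 174 in restrained rats. It had 140, 135, 135 and 145 in linalool rats, against 227, 185, 204 and 182 in controls. No rat with linalool reached a rat without it, and the linalool rats had a mean of 139 ± 4.79, the smallest SD of its groups (SD, n = 4). The difference was -0.51 (SE 0.14) under restraint and -0.47 (SE 0.14) without it. Among 15 kept receptor phosphatases on a list of 20, 0 were called for linalool (median -0.04) or restraint (0.06).

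Rassf3 (probe set 1373934_at), an adaptor with a Ras association domain, had 114, 105, 130 and 155 in restrained rats with linalool, against 151, 176, 164 and 196 in restrained rats. It had 131, 115, 138 and 124 in linalool rats, against 170, 161, 188 and 180 in controls. In Rassf3, 1 restrained rat with linalool overlapped the restrained rats, and otherwise the rats with linalool were lower. The difference was -0.41 (SE 0.11) under restraint and -0.42 (SE 0.11) without it. Of the 8 kept genes of a list of 12 relatives and Hippo pathway partners, 0 were called for linalool (median 0.01) or restraint (0.09).

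Dclre1b (probe set 1388591_at), known in human cells as Apollo, a nuclease that trims chromosome ends beside the telomere protein TRF2, had 57.9, 56.3, 69.7 and 70.3 in restrained rats with linalool, against 81, 79.5, 88.5 and 93.4 in restrained rats. It had 69.6, 66.7, 73.5 and 92.2 in linalool rats, against 118, 99.5, 91.6 and 88.3 in controls. Linalool rat 4 lay among the controls. The difference was -0.36 (SE 0.10) under restraint and -0.34 (SE 0.10) without it. The second probe set (1395700_at), under the filter, ran the other way under restraint, with 0.10 there and -0.30 without restraint. Of 11 kept genes on a list of 18 for telomeres and crosslink repair, 0 were called for linalool (median -0.06), and for restraint 1 fell, Tinf2, a shelterin subunit (-0.27, SE 0.06, adjusted p = 0.0113 by limma).

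Rnf32 (probe set 1381476_at), a RING finger protein studied mainly in human testis, had 53.4, 49.5, 76.7 and 64.3 in restrained rats with linalool, against 106, 94.3, 96.7 and 88.2 in restrained rats. It had 51.4, 55.7, 64.9 and 77.9 in linalool rats, against 93.9, 71.4, 74.4 and 94.6 in controls. Under restraint the groups were apart, and without it linalool rat 4 stood above the lower controls. The difference was -0.56 (SE 0.13) under restraint and -0.35 (SE 0.13) without it. The second, dim probe set of Rnf32 (1394489_at) gave -0.02 and 0.04 in the same comparisons. Of 52 other kept genes named Rnf with a number, 0 were called for linalool (median -0.03). For restraint 4 fell and 0 rose, among them Rnf31, of the enzyme that builds linear ubiquitin chains (-0.50, SE 0.09, adjusted p = 0.00406 by limma), and Rnf6 (-0.44, SE 0.11, adjusted p = 0.0291 by limma).

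**Figure D2:**
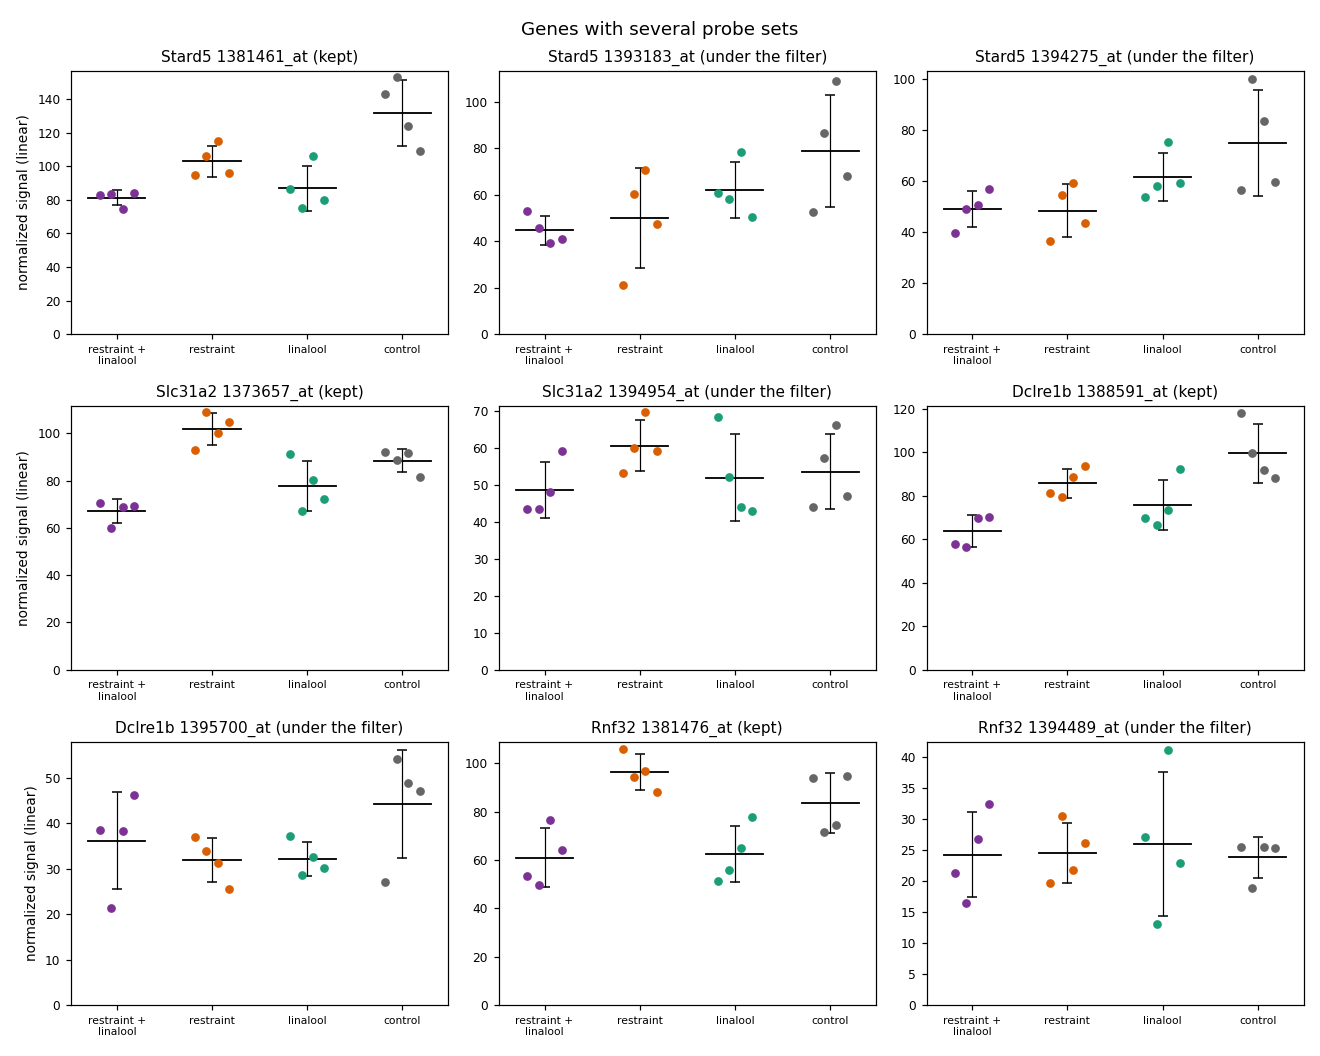
Quantile-normalized signal (linear scale from 0) of each probe set of the 4 genes that have several, by group and rat, with mean and SD over 4 rats. The kept probe set of each gene shows lower means with linalool, while the second probe set of Rnf32 has means between 23.8 and 26 in all groups.

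Of the 5 dim probe sets, 4 were lower for linalool against control and 3 under restraint, and 2 were lower in both. Over the 16 rats, Pearson's r with the kept probe set of the gene was 0.17 for Rnf32, 0.15 for Dclre1b and 0.60 for Slc31a2. It was 0.38 for the further probe set of Myh9, all as a description. At such low signals the added 16 shrinks differences on the log2 scale, and its part in these values was not tested. On the linear scale, without the added 16, the second probe set of Dclre1b had a mean of 36.2 in restrained rats with linalool and 32 in restrained rats. That of Rnf32 had means of 23.8 to 26 over the groups.

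The test on restraint, whose estimate but not its SE is independent of the choice of genes, called 1 of the 10. Arhgef2 was lower in restrained rats, by -0.50 averaged over both odour conditions (SE 0.08, adjusted p = 0.00128 by limma), that is 29.2% below, with 1.56% of all probe sets called lower, 2.65% higher and 4.21% in either direction. Restrained and unrestrained rats did not overlap, either with linalool or without it, which held for 1 of the 10 genes and 0.467% of all probe sets. With linalool the difference was -0.56 (SE 0.11), and without it -0.44 (SE 0.11). With the values as deposited, in which the median of all probe sets moves by 0.21 for this comparison, Arhgef2 differed by -0.28 (adjusted p = 0.187 by limma), or -0.48 relative to that shift. With those values 1.84% of all calls were lower, against 37.1% after normalization. The adjusted p of Arhgef2 ran from 0.000259 to 0.187 over 26 alternatives and was under 0.05 in 25.

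The other 9 genes did not pass for restraint. In simulated data the fit called 36.7% of log2 falls of 0.3, so a small restraint effect can be missed. Stard5 differed by -0.19 (SE 0.07, adjusted p = 0.163 by limma) and Dclre1b by -0.19 (SE 0.07, adjusted p = 0.168 by limma), and the remaining 7 lay between -0.04 and 0.08. The dim probe sets, which were not tested, had average restraint differences of -0.37 (1394275_at) and -0.46 (1393183_at) for Stard5, -0.11 for Dclre1b, 0.04 for Slc31a2 and -0.01 for Rnf32, so both dim probe sets of Stard5 had larger differences than its bright one. The 95% interval of the restraint effect, not adjusted for the number of probe sets, left out 0 for Stard5 (-0.35 to -0.03) and Dclre1b (-0.34 to -0.03). It ran from -0.19 to 0.23 for Ptpru, from -0.17 to 0.10 for Myh9 and from -0.13 to 0.13 for Slc31a2. With Arhgef2 counted, 3 of the 10 had an unadjusted p under 0.05 by limma, against 3524 of 18625 over all. The median of the 10 was -0.03, against -0.01 over all probe sets. The separate restraint comparisons share arrays with those that chose the genes and are given as a description. With linalool, 1 of the 10 was called lower, Arhgef2, with 0.564% of all probe sets called lower, 1.12% higher and 1.69% in either direction. Without linalool, 0 of the 10 were called by limma, with 0.274% of all called lower, 0.628% higher and 0.902% in either direction and 2345 of 18625 at an unadjusted p under 0.05. Slc31a2 had -0.17 (SE 0.09) with linalool and 0.17 (SE 0.09) without.

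Marker lists were set beside the restraint effect of Arhgef2 too. Of 10 kept microglia markers 2 fell, P2ry12, a purine receptor (-1.0, SE 0.12, adjusted p = 0.000237 by limma), and Cx3cr1, the fractalkine receptor (-0.49, SE 0.09, adjusted p = 0.00603 by limma), while the list's median was 0.06. Its summed signal was 6389 to 11041 in restrained rats with linalool, against 6156 to 7710 in linalool rats, and 6206 to 8115 in restrained rats, against 6769 to 7692 in controls. Of 11 endothelial markers 1 fell (Slco1a4, -0.34), with a list median of -0.03. Those not called ran from -0.46 (Kdr) to 0.40 (Flt1). Of 9 oligodendrocyte markers 1 fell (Opalin, -0.76), with a list median of -0.04, and of 9 astrocyte markers 1 rose (Gjb6, 0.29), with a list median of 0.08. The part of these cell types in the restraint effect of Arhgef2 was not tested.

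**Figure D3:**
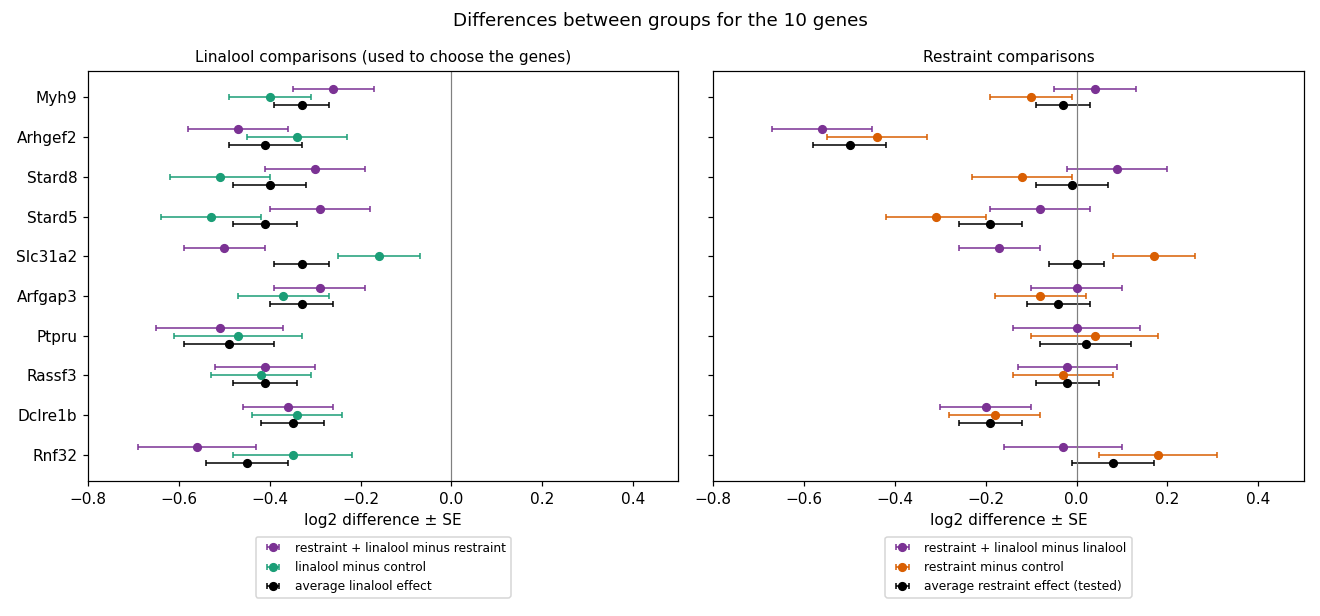
Log2 differences with SE for the 10 genes, in the linalool comparisons (left) and the restraint comparisons (right). All linalool differences lie left of 0, from -0.56 to -0.16, and among the average restraint effects that of Arhgef2, at -0.50, stands apart from the other 9, at -0.19 to 0.08.

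The linalool differences kept their sign but lost their call when the arrays with high BioC were set apart. With these arrays as a block the average linalool effects ran from -0.50 (Ptpru) to -0.25 (Slc31a2), with a median of -0.34, and 0 of the 10 were called by limma (adjusted p 0.125 to 0.233), where 1898 of 18625 probe sets had an unadjusted p under 0.05. Within the 13 low arrays they ran from -0.51 to -0.25, again with 0 called (adjusted p 0.17 to 0.291 by limma). In both settings 0% of all probe sets were called lower, against 0.118% in the main fit. Ptpru (-0.49 with 16 arrays, -0.51 within the low arrays), Rnf32 (-0.45, -0.46) and Stard8 (-0.40, -0.44) were larger within the low arrays, and Dclre1b (-0.35, -0.35) was equal. Arhgef2 (-0.41, -0.32), Slc31a2 (-0.33, -0.25), Myh9 (-0.33, -0.26), Rassf3 (-0.41, -0.34), Stard5 (-0.41, -0.35) and Arfgap3 (-0.33, -0.30) were smaller. Leaving out restrained rat 2 with linalool, which has 1 of the high arrays, also left 0 called (0.0107% of all probe sets lower). Without linalool rat 2 or linalool rat 4, which have the other high arrays, 4 and 3 were called (0.0537% and 0.0215% of all). Leaving out a rat with a low array, restrained rat 3 or restrained rat 1 with linalool, left 3 called each time (0.0322% and 0.0591% of all). Lower calls over all probe sets thus fell in each of these fits too. Arhgef2's average restraint effect was -0.53 with the block and -0.52 within the low arrays.

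**Figure D4:**
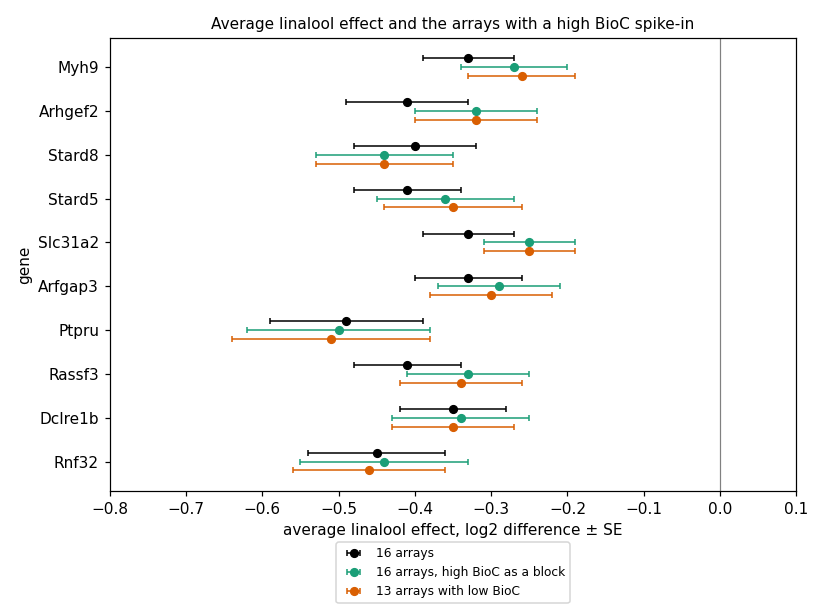
Average linalool effect (log2 difference with SE) of the 10 genes over 16 arrays, with the high BioC arrays as a block, and over the 13 low arrays. All values stay below 0, between -0.51 and -0.25 in the last of these.

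Marker lists of other cell types were set beside the linalool differences. Of 11 kept endothelial markers, 11 had a negative average linalool effect (median -0.14), with 0 called by limma; their summed signal was 3198 to 4055 in restrained rats with linalool, against 3416 to 4973 in restrained rats, and 3559 to 4005 in linalool rats, against 3928 to 4830 in controls. Of 13 kept leptomeningeal markers, a list written after some of their values were seen, 13 were negative (median -0.36) and 0 called. Their summed signal was 3165 to 10759 in restrained rats with linalool and 4932 to 10523 in restrained rats, and 4320 to 5568 in linalool rats and 5537 to 8263 in controls. Oligodendrocyte markers were negative in 8 of 9 (median -0.17) and blood cell markers in 3 of 3 kept of 10 (-0.37). Microglia markers were negative in 3 of 10 (0.08), astrocyte markers in 7 of 9 (-0.03) and neuron markers in 8 of 10 (-0.02). Pericyte and smooth muscle markers were negative in 6 of 8 (-0.11), and ependymal and choroid plexus markers in 0 of 5 (0.21). Sst rose with linalool on the hypothalamic list (0.37, SE 0.08, adjusted p = 0.0421 by limma), the somatostatin gene, and no other member of these lists was called for linalool. Of 3 kept anterior pituitary markers of a list of 8, 1 was negative (median 0.11), and their summed signal was 2329 to 6011 in restrained rats with linalool, 2749 to 4306 in linalool rats, 4519 to 6996 in restrained rats and 208 to 6896 in controls. Myh9 is known to be expressed in endothelium, and the part of these cell types in the linalool differences was not tested.

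Among rats of the same group the 10 genes varied only in part together. After the group means were removed, Pearson's r between 2 of the genes had a median of 0.15 over 45 pairs and ran from -0.40 (Ptpru and Arfgap3) to 0.70 (Stard8 and Dclre1b), with 30 pairs positive. Between a gene of the group and any other kept probe set the median was 0, with 50.6% of pairs positive. Rassf3, Stard5 and Slc31a2 deviated with Arhgef2, at 0.60, 0.56 and 0.51. These are descriptions over 16 rats that share array quality, and within the 13 low BioC arrays the median was 0.13.

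**Figure D5:**
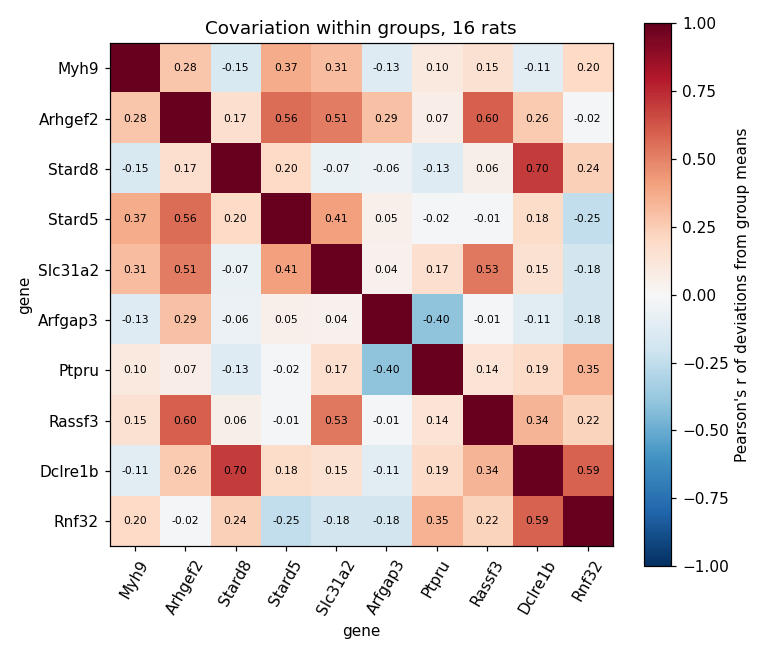
Pearson's r between the deviations of each gene from its group means over 16 rats. The cells run from -0.40 to 0.70, and 6 of the 9 values of Arfgap3 lie below 0.

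Across all 16 rats, the pattern of each gene was set against 10241 other named genes, and the closest 2 of each had Pearson's r between 0.79 and 0.93, given below with Spearman's coefficient. Arhgef2 was most like Slco2b1, an organic anion transporter gene (r = 0.93, Spearman 0.96), and Slc35b2, a Golgi transporter of the sulfate donor (r = 0.93, Spearman 0.94). Stard5 was most like Ssr3 (r = 0.91, Spearman 0.84) and Kif13a (r = 0.89, Spearman 0.91). Rnf32 was most like Cep85 (r = 0.88, Spearman 0.90) and Rimklb (r = 0.82, Spearman 0.82), and Rassf3 like Eeig1 (r = 0.88, Spearman 0.90) and Sephs2 (r = 0.86, Spearman 0.84). Stard8 was most like Lin54 (r = 0.87, Spearman 0.89) and Rbbp6 (r = 0.86, Spearman 0.85), and Myh9 like Aco1, the cytosolic aconitase that binds iron-responsive RNA (r = 0.87, Spearman 0.85), and Abhd4 (r = 0.86, Spearman 0.87). Slc31a2 was most like Ipo11 (r = 0.87, Spearman 0.82) and Slc20a1, a phosphate transporter (r = 0.86, Spearman 0.85), and Arfgap3 like Bpgm (r = 0.87, Spearman 0.81) and Qng1 (r = 0.84, Spearman 0.80). Dclre1b was most like Mybl1 (r = 0.86, Spearman 0.75) and Klf11 (r = 0.86, Spearman 0.82), and Ptpru like Ppip5k1 (r = 0.82, Spearman 0.75) and Slc45a3 (r = 0.79, Spearman 0.86). These are the highest of many values over the same arrays, and they include the differences between groups.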

How the data were processed

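Signal was measured in hypothalamus from 16 rats, 4 per group. The values are the authors' deposited intensity table; MAS5 is named per the submitters' processing notes, and its version and scaling target are not given in the sources used here. Array medians as deposited ran from 67 to 127, so log2 intensities received quantile normalization, were returned to the linear scale and were taken as log2 after adding 16. The 57 control probe sets were left out, and probe sets at or above the 40th percentile of mean log2 were kept (18625 of 31042), which kept 10 of the 15 member probe sets, 1 per gene. Of the 31042, 20826 had 1 symbol, 436 several and 9780 none. Limma 3.58.1 in R 4.3.3 fitted 1 group-means model (12 residual degrees of freedom), with Benjamini-Hochberg adjustment over kept probe sets and a call at 0.05. It was tried on simulated data for the average restraint effect, with 200 probe sets lowered. It called 36.7% of log2 falls of 0.3, 75.2% of 0.5 and 97.6% of 1, and 5.67% of its calls were false. The number of arrays limits precision; p-values measure the spread between rats. The members, lists and motifs were chosen with earlier results of these data known. All member probe sets are named, with up to 2 called genes per direction of each list and the 2 most alike genes of each member. Called markers, Kdr and Flt1 were named after their values were seen. One related-gene list is not reported here. The leptomeningeal list was written after values were seen. Alternatives covered scaling, pseudocount, filter, BioC, beta-actin, a replicate block and leaving out each rat.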

Additional observations from a re-analysis of the deposited data

Results flagged for a closer look

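Of 60 group-and-probe-set combinations, 3 had a rat far from the other 3 of its group, and chance gives about 1 in 20. Stard5 was 74.5 in restrained rat 3 with linalool, below the other 3 at 83.1 to 83.8. Slc31a2 was 59.8 in restrained rat 2 with linalool, a rat with a high BioC array, below the others at 68.8 to 70.3. The dim second probe set of Rnf32 was 18.8 in control rat 2, below 25.3 to 25.5. For Slc31a2 every restrained rat with linalool lay below the mean of the linalool rats and every restrained rat above the mean of the controls, an interaction of -0.34 (SE 0.12) that was not tested here because it is not independent of the choice of the gene.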

How the results depend on the processing

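All average linalool effects of the 10 genes stayed negative under every alternative run. Their calls were less steady: of the 10, 0 were called by limma with the values as deposited, with no filter on dim probe sets, with high BioC as a block and within the low BioC arrays, 4 with the 60th percentile filter, which drops the 6 dimmer genes, and 6 with the replicate block. With 1 rat left out they ran from 0, without restrained rat 2 with linalool, to 10. They were 3 without restrained rat 3, linalool rat 4 or restrained rat 1 with linalool, 4 and 5 without linalool rats 2 and 3, and 6 without linalool rat 1 or restrained rat 4 with linalool. Lower calls over all probe sets were 0.118% in the main fit, 0.00537% as deposited and 0.00644% with no filter. They were 0.274% with the 60th percentile filter and 0.0698% with the replicate block. With 1 rat left out they ran from 0.0107%, without restrained rat 2 with linalool, to 0.381%, without control rat 1. Calls over all probe sets for the average linalool effect (133) were 1 as deposited, 80 with median scaling, 31 with no filter, 1 with the BioC block, 0 within the low arrays (1760 at an unadjusted p under 0.05), 84 with the replicate block and 327 when fitted beside the beta-actin 3′ to 5′ ratio, and 37 (without restrained rat 2 with linalool) to 366 (without control rat 1) with 1 rat left out; lower calls were 16.5% of them, and 26.2% with median scaling. For restrained rats with linalool minus restrained rats (121) they were 32 as deposited, 46 with no filter, 51 with the BioC block, 0 within the low arrays (1692 at an unadjusted p under 0.05), 386 with the beta-actin ratio and 29 to 233 without the same rats. For linalool minus control (0) the count was 1 with the beta-actin ratio and 0 to 0 with 1 rat left out. For the average restraint effect (784) it was 457 within the low arrays and 489 (without linalool rat 3) to 1004 (without control rat 1) with 1 rat left out, and 1 of the 10 genes, Arhgef2, was called in every alternative but the values as deposited, where 0 were. The deviations of same-numbered rats correlated at -0.16 to 0.23. Pairs with different numbers were not set beside these, so the values cannot show whether same-numbered rats share more than a number. The replicate block moved no restraint call of the 10 genes. Only for Slc31a2 with a pseudocount of 64 did an average linalool effect move by more than the spread between rats, to -0.22. The cause of these changes was not tested, other than the dropped genes. Dim probe sets limit what the second probe sets can show.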
